A study of Mus musculus with 6 samples.

Results

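The 38 genes described here encode the proteins that copy DNA and supply its building blocks: origin licensing factors, the replicative helicase, DNA polymerases and primase, the sliding clamp and its loader, Okazaki fragment enzymes, single-strand binding proteins, chromatin assembly factors and the enzymes of deoxynucleotide synthesis. They were taken by gene symbol from a list of genes named for their function. Of the 38, 36 had a row in the expression table of 39010 genes, each a single row, and Cdt1 and Gins2 are not analysed here. The test covered the 33 genes that reached at least 1 FPKM (fragments per kilobase, an expression level scaled for transcript length and library size) in at least 2 libraries, out of 13566 genes tested in all. Orc1, Gins3 and Fen1 stayed below that level and are given as values only.

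RNA was taken from hindlimb skeletal muscle of wild-type mice of mixed strain background on postnatal days 2, 7 and 14 (P2, P7 and P14), with 2 libraries per stage and no treatment or engineered allele. The series describes a program of gene expression during neonatal muscle growth, and the question here is how the replication machinery changed over those 3 stages. The replicates are named biological, but no label says whether a library held 1 mouse or a pool. A p-value here reflects the variation among these 6 libraries. By Xist the 2 libraries differed in sex at P2 (0.104 and 74.7 FPKM) and at P7 (61.2 and 0.410 FPKM), so they came from different animals. At P14 Xist was under 1 FPKM in both, so sex does not tell them apart, and the variation between them may be technical. Muscle fibre markers were strongly expressed at every stage: the FPKM of the 9 measured markers summed to 2804 and 4344 at P2, 5268 and 5359 at P7, and 13607 and 10429 at P14.

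A cell copies its genome once per division. In G1 the origin recognition complex, with Cdc6, loads the Mcm2 to Mcm7 ring onto origins, and in S phase Cdc45 and the GINS complex turn that ring into an active helicase, behind which primase and the polymerases synthesise the new strands. Most of these genes are transcribed at the G1 to S transition under E2F and the retinoblastoma family, so that their mRNA is high in dividing cells and low in cells that have left the cycle. In muscle the multinucleated fibre is post-mitotic, and after birth new nuclei come from dividing satellite cells and myoblasts that fuse with it, while fibroblasts, endothelium, blood cells and cartilage in the same tissue also divide.

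Promoter sequence is shown first because E2F-type letters are the element through which genes of this class are known to be controlled. The sequences were read from RefSeq promoter windows on GRCm38.p6, which were found for 32 of the 38 genes, 31 of them with a row in the table. The 250 bases upstream of each start were searched on both strands for TTTCCCGC, TTTGGCGC, TTTCGCGC and TTTGCCGC. At least 1 of these stood in 9 of 31 genes (29.0%), against 583 of 27025 genes with a promoter entry (2.16%) and 357 of 9153 tested genes (3.90%). The 9 were Mcm5, Mcm6, Mcm7, Cdc6 and Orc1 of licensing, Gins3 of helicase activation, Pola1 and Rfc3 of the fork, and Uhrf1. The CCAAT box stood in 21 of 31 genes (67.7%), against 37.5% of all genes and 40.9% of tested genes, and the cell cycle homology element TTTGAA in 4 of 31 (12.9%), against 18.3% of all genes and 12.7% of tested genes. A match of letters describes the window only, and no factor binding was measured.

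The 5 stretches below run from 170 to 31 bases before the start, 5′ to 3′ on the strand of the gene, with E2F-type letters in capitals. Mcm5 and Mcm6 had the largest fall among the helicase subunits, Pola1 had a smaller one, Rrm2 had the largest difference of the 33 tested genes on the log2(FPKM + 1) scale, and Rpa2 did not pass the test. In Mcm5 and in the upstream group of Mcm6, 2 matches on opposite strands overlap. Rrm2 and Rpa2 had no match in the 250 bases searched.
Mcm5, chr8:75109339-75109478, + strand: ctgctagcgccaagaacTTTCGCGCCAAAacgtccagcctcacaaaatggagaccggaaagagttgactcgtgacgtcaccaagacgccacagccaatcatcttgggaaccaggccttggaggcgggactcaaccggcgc
Mcm6, chr1:128359736-128359875, - strand: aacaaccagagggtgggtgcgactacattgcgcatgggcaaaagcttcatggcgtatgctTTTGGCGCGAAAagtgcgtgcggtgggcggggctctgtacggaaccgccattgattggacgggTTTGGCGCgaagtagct
Pola1, chrX:93632186-93632325, - strand: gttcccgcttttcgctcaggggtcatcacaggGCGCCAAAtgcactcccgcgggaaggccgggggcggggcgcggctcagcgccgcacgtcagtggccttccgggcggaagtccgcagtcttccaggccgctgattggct
Rrm2, chr12:24708084-24708223, + strand: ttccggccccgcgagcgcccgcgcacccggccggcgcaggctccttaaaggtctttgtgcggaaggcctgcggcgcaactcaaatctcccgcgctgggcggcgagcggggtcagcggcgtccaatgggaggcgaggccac
Rpa2, chr4:132768190-132768329, + strand: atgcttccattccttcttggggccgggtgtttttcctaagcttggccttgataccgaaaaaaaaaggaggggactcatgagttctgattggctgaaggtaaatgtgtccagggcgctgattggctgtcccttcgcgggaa

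Over the full interval most replication genes fell. Of the 33 tested, 25 were called lower at P14 and 0 higher (limma, Benjamini-Hochberg adjusted p below 0.05), where 12.9% of all tested genes were called lower and 11.5% higher. A further 3 reached only an unadjusted p below 0.05, which makes 28, all with a negative difference. Over all tested genes 5327 of 13566 had such a p in either direction. The median log2 difference of log2(FPKM + 1) in the 33 genes was -1.19, beside -0.05 for all tested genes. Both P14 libraries were below both P2 libraries for 30 of 33, as they were for 35.2% of all tested genes. Over the 36 genes with a row, the mean FPKM at P14 ran from 16.5% to 123% of that at P2, with a median of 37.5%, and it was under 50% for 28 genes and under 25% for 7. In whole tissue, fewer cells of a type and less RNA per cell cannot be told apart.

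**Figure D1:**
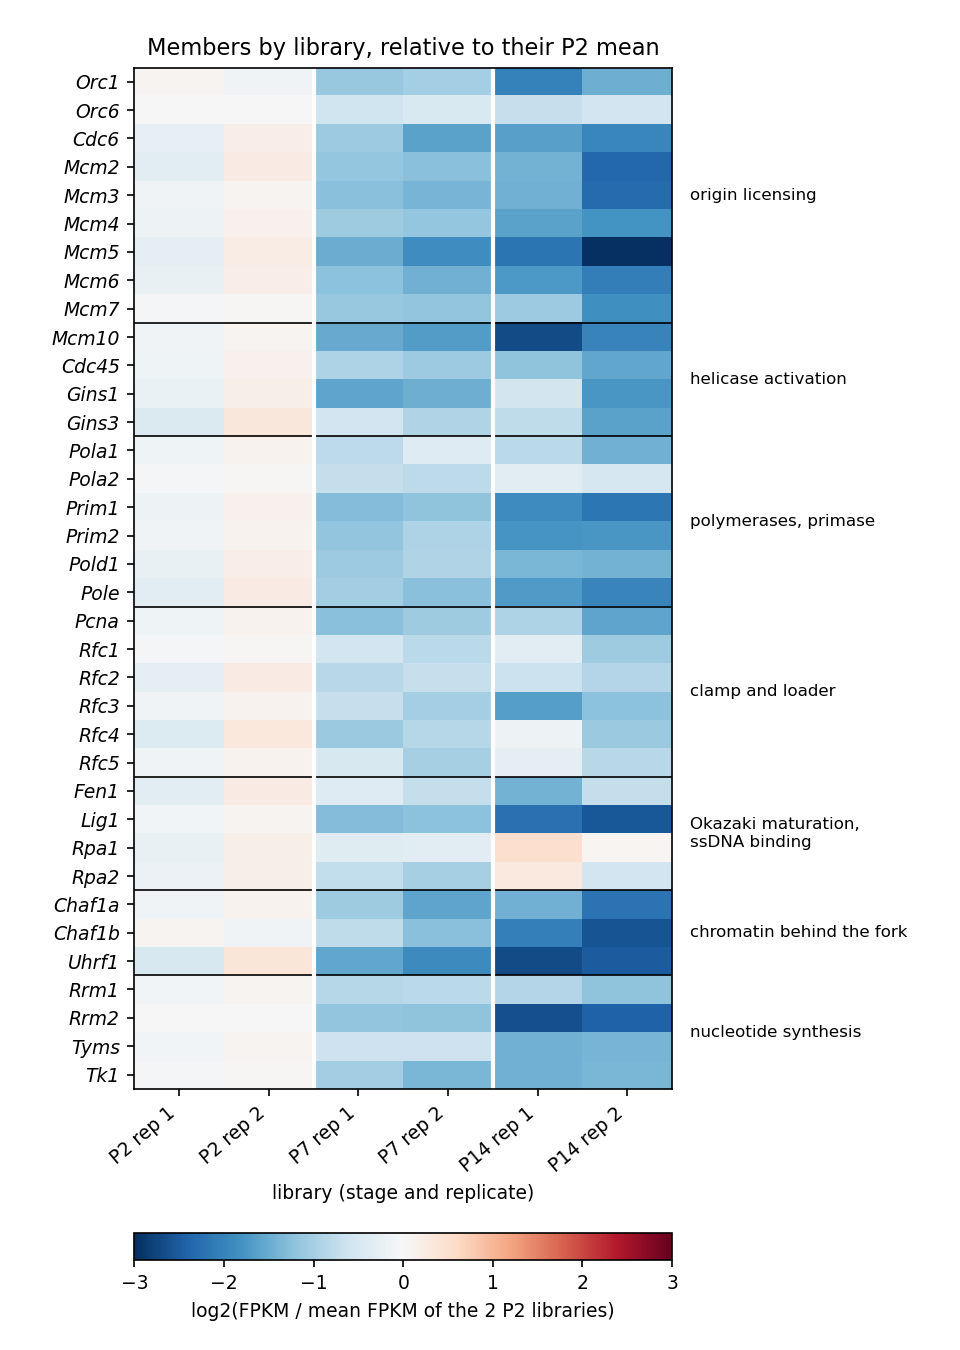
Heat map of the 36 measured replication genes (rows, grouped by role) in each of the 6 libraries (columns), coloured by the log2 ratio of FPKM to the mean of the 2 P2 libraries. Blue deepens through P7 and P14 in most rows, while Rpa1, Rpa2, Pola2 and parts of the clamp loader pale again at P14.

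Of the licensing genes, all 8 tested were called lower at P14 than at P2. These are Orc6, the smallest subunit of the origin recognition complex, Cdc6, the ATPase that loads the helicase, and the 6 subunits of the helicase ring itself. The ring subunits were close together, with log2 differences of -1.30 to -1.79. Mcm5 had 5.03 and 7.14 FPKM at P2, 2.16 and 1.67 at P7, and 1.34 and 0.752 at P14, so its stages did not overlap. Its log2 difference at P14 against P2 was -1.79 ± 0.22 (SE, limma adjusted p = 0.00428), and its P14 mean was 17.2% of its P2 mean. Mcm6 had 11.7 and 15.8 FPKM at P2, 5.85 and 5.03 at P7, and 4.14 and 3.26 at P14, again with each stage below the one before. Its log2 difference was -1.64 ± 0.20 (SE, limma adjusted p = 0.00385).

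The other 4 ring subunits followed the same order of stage means. Mcm3 had 6.85 and 7.81 FPKM at P2, 3.08 and 2.78 at P7, and 2.70 and 1.47 at P14. Mcm2 had 5.27 and 7.77 FPKM at P2, 2.90 and 2.73 at P7, and 2.45 and 1.27 at P14. In both genes P14 replicate 2 was the lowest library. Mcm4 had 6.59 and 8.06 FPKM at P2, 3.49 and 3.26 at P7, and 2.41 and 2.10 at P14. Mcm7 had 13.9 and 14.6 FPKM at P2, 6.43 and 6.28 at P7, and 6.73 and 3.98 at P14, so that its P7 and P14 libraries overlapped where those of the other ring subunits did not. The log2 differences at P14 against P2 were -1.46 for Mcm3, -1.41 for Mcm2, -1.35 for Mcm4 and -1.30 for Mcm7, and all 6 ring subunits were called whichever library was left out. Without the filter on low values Mcm2 missed the threshold (limma adjusted p = 0.0538).

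Cdc6 fell to 0.704 ± 0.114 FPKM at P14, against 2.43 ± 0.540 at P2 (SD, n = 2 each), which is 28.9% of its P2 mean. Its call was lost without P14 replicate 1 or without P14 replicate 2 (highest limma adjusted p = 0.0617). Orc6 had the smallest called difference, -0.52 ± 0.14 (SE, limma adjusted p = 0.0389), at 4.08 ± 0.225 FPKM at P14, against 6.30 ± 0.0539 at P2 (SD, n = 2 each). The Orc6 call was lost whichever of the 6 libraries was left out, with a highest adjusted p of 0.197, and Orc6 overlaps Vps35 on the opposite strand. Orc1, the cell-cycle regulated large subunit, was listed at 0.219 and 0.326 FPKM at P14, against 0.954 and 0.839 at P2, below the level tested. The remaining origin recognition subunits did not pass the test: the log2 difference was -0.14 for Orc2, -0.03 for Orc3, 0.29 for Orc4 and -0.28 for Orc5. Orc4, at 25.3 ± 1.15 FPKM at P14 against 20.5 ± 0.905 at P2, was thus several times more abundant than Orc6 at both stages on a scale that is already per length.

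**Figure D2:**
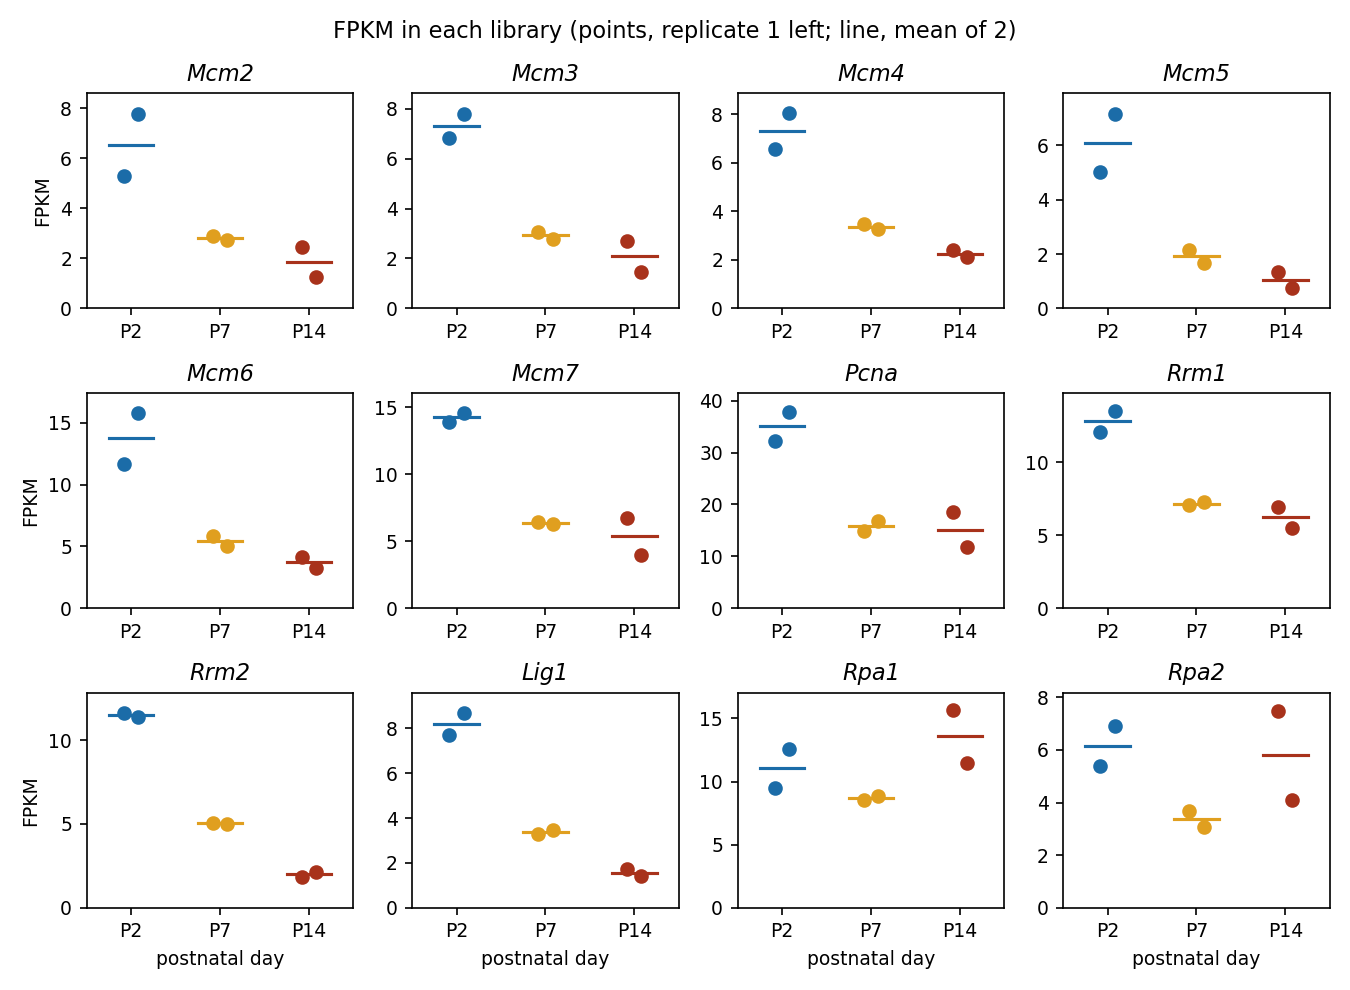
FPKM (linear axes from 0) of 12 replication genes by postnatal day, with 1 point per library and a line at the mean of 2. The 6 Mcm ring subunits, Pcna, Rrm1, Rrm2 and Lig1 are highest in both P2 libraries, while Rpa1 and Rpa2 are lowest at P7 and overlap between P14 and P2.

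Among the helicase activation genes, 2 of 3 tested were called lower at P14. Mcm10, which helps start the loaded helicase, was at 0.577 ± 0.186 FPKM at P14 and 2.86 ± 0.267 at P2 (SD, n = 2 each), with a log2 difference of -1.30 ± 0.17 (SE, limma adjusted p = 0.00478). Cdc45, the helicase cofactor, was at 1.16 ± 0.201 FPKM at P14 and 3.03 ± 0.392 at P2, with a log2 difference of -0.90, and lost its call without P14 replicate 2 (limma adjusted p = 0.0636). It overlaps Ufd1, at a mean of 13.9 FPKM, on the opposite strand. Gins1, a GINS subunit, did not pass the test at a log2 difference of -0.68 (limma adjusted p = 0.0789). Its 2 P14 libraries stood apart, at 1.68 and 0.740 FPKM, against 2.16 and 2.80 at P2. Gins3, below the level tested, was at 0.650 and 0.364 FPKM at P14, against 0.822 and 1.40 at P2.

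Of the 6 polymerase and primase genes, 5 were called lower at P14. These were the catalytic subunits of polymerases alpha, delta and epsilon and both primase subunits, and the exception was Pola2, the accessory B subunit of polymerase alpha. Prim1, the catalytic primase subunit, had 6.18 and 7.49 FPKM at P2, 2.79 and 2.98 at P7, and 1.85 and 1.51 at P14, with no overlap between stages. Its log2 difference at P14 against P2 was -1.54 ± 0.16 (SE, limma adjusted p = 0.0026). Prim2, the large primase subunit, was at 1.32 ± 0.00778 FPKM at P14 and 4.47 ± 0.466 at P2 (SD, n = 2 each). Pole, the catalytic subunit of the leading-strand polymerase, was at 1.30 ± 0.174 FPKM at P14 and 4.59 ± 1.26 at P2, and Pold1, that of polymerase delta, was at 1.87 ± 0.0493 FPKM at P14 and 4.91 ± 0.972 at P2. Their log2 differences were -1.23, -1.27 and -1.03 in that order.

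Pola2 had 3.92 and 4.18 FPKM at P2, 2.46 and 2.34 at P7, and 3.21 and 2.87 at P14, so both P14 libraries were above both P7 libraries and below both P2 libraries. Its log2 difference at P14 against P2 was -0.32 (limma adjusted p = 0.144). Pola1, the catalytic subunit of the same enzyme, was at 2.90 ± 0.864 FPKM at P14 and 6.19 ± 0.689 at P2, a log2 difference of -0.90 (limma adjusted p = 0.0248). Pola1 lies on the X chromosome, and the libraries differed in sex: Xist was expressed in P2 replicate 2 (74.7 FPKM) and P7 replicate 1 (61.2 FPKM) and was under 1 FPKM in the other 4. The Pola1 call was lost without P2 replicate 2, without P14 replicate 2 (highest limma adjusted p = 0.116) and with a term for sex. Of the small accessory subunits of polymerase epsilon, Pole2 was called lower (-0.87), a call lost without P2 replicate 2, either P7 library or P14 replicate 2, while Pole3 (-0.32) and Pole4 (0.58) did not pass the test.

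The clamp and its loader had 2 of 6 genes called lower at P14. Pcna, the sliding clamp that holds polymerases on DNA, had the highest stage mean of the 36 genes at each of the 3 stages. It had 32.3 and 37.8 FPKM at P2, 14.8 and 16.8 at P7, and 18.5 and 11.7 at P14, so that the P14 libraries lay on both sides of the P7 ones. Its log2 difference at P14 against P2 was -1.19 ± 0.24 (SE, limma adjusted p = 0.0156), and the call was lost without P14 replicate 2 (adjusted p = 0.0649). A processed copy listed as Pcna-ps2 was at 1.32 to 2.89 FPKM in the 6 libraries, and how reads were shared between the copies is not stated.

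Of the 5 loader subunits only Rfc3, a small subunit, was called, at 2.08 ± 0.424 FPKM at P14 and 5.63 ± 0.553 at P2 (log2 difference -1.11), and it lost the call without P14 replicate 1 (limma adjusted p = 0.0545). Rfc1, the large subunit, and Rfc2 both had a log2 difference of -0.62, short of the threshold. Rfc4 had 3.57 and 5.93 FPKM at P2, 2.2 and 2.64 at P7, and 4.29 and 2.18 at P14, with P14 replicate 1 inside the P2 range. Rfc5 had 5.81 and 6.74 FPKM at P2, 4.49 and 3.13 at P7, and 5.16 and 3.50 at P14. Rfc4 and Rfc5 both had a log2 difference of -0.46 (limma adjusted p = 0.293 for Rfc4 and 0.168 for Rfc5). Rfc4 overlaps Eif4a2, at a mean of 116 FPKM, and Rfc5 overlaps Wsb2, each on the opposite strand. Whether the authors counted by strand is not given in the sources used here.

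The widest split within a role was between Lig1 and the replication protein A subunits. Lig1, the ligase that seals Okazaki fragments, had 7.69 and 8.67 FPKM at P2, 3.30 and 3.46 at P7, and 1.73 and 1.41 at P14. It fell at each step with libraries that did not overlap, and its log2 difference at P14 against P2 was -1.84 ± 0.15 (SE, limma adjusted p = 0.00163). Rpa1, the large subunit of the single-strand DNA binding complex that also serves repair, had 9.53 and 12.6 FPKM at P2, 8.58 and 8.87 at P7, and 15.7 and 11.5 at P14. Its P14 and P2 libraries overlapped (log2 difference 0.27, limma adjusted p = 0.380). Rpa2, the middle subunit, had 5.40 and 6.89 FPKM at P2, 3.67 and 3.08 at P7, and 7.48 and 4.11 at P14, with P14 replicate 1 the highest of the 6 libraries and a log2 difference of -0.11 (limma adjusted p = 0.784). Rpa3, the small subunit, was at -0.09, and likewise did not pass. Fen1, the flap endonuclease, was listed at only 0.102 and 0.165 FPKM at P14, against 0.219 and 0.325 at P2. Gm10143, annotated antisense over much of Fen1, was listed at 1.17 and 0.831 FPKM at P14, against 2.2 and 3.40 at P2, and reads of the pair cannot be told apart without knowing the strand setting.

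**Figure D3:**
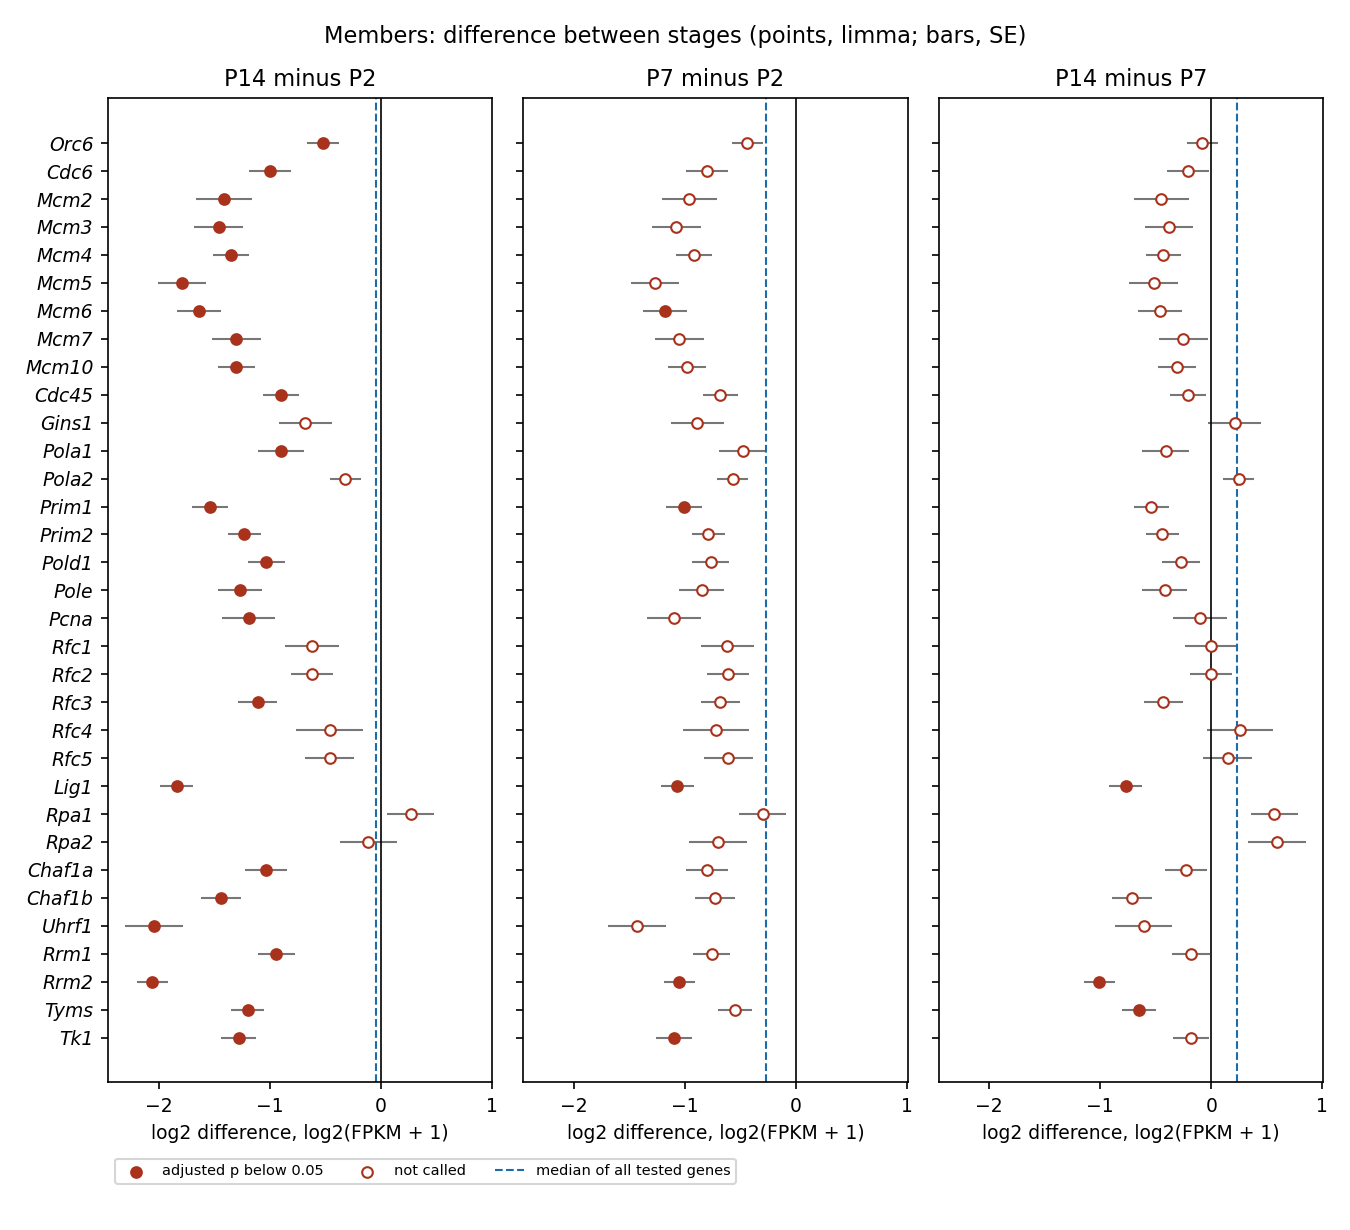
Log2 differences of log2(FPKM + 1) for the 33 tested replication genes in 3 stage comparisons, with bars of 1 SE; filled points passed the limma adjusted p of 0.05 and the dashed line is the median of all tested genes. Between P14 and P2 the points run from -2.06 for Rrm2 to 0.27 for Rpa1, and few points are filled in the 2 shorter intervals.

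All 3 chromatin genes that act behind the fork were called lower at P14. Uhrf1, which reads hemimethylated DNA and recruits the maintenance methyltransferase Dnmt1, had 7.85 and 14.0 FPKM at P2, 3.69 and 2.90 at P7, and 1.69 and 1.93 at P14. Its P14 mean was 16.5% of its P2 mean, the lowest of the 36 genes (log2 difference -2.04 ± 0.26, SE, limma adjusted p = 0.00445), although its P2 libraries were far apart. The large and middle subunits of chromatin assembly factor 1, which places histones on new DNA, were Chaf1a at 0.734 ± 0.273 FPKM at P14 and 2.53 ± 0.277 at P2, and Chaf1b at 0.783 ± 0.203 FPKM at P14 and 3.82 ± 0.347 at P2 (SD, n = 2 each). Their log2 differences were -1.03 and -1.44. Chaf1a lost its call without P14 replicate 2 (limma adjusted p = 0.0617), and it overlaps Ubxn6 on the opposite strand.

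All 4 nucleotide synthesis genes were called lower at P14. Ribonucleotide reductase makes deoxynucleotides from ribonucleotides with a large subunit, Rrm1, and a small subunit, Rrm2, which is made in S phase. Rrm2 had 11.6 and 11.4 FPKM at P2, 5.04 and 5.02 at P7, and 1.85 and 2.15 at P14, with replicates closer together than the stages by a wide margin. It had the largest difference of the list on the log2(FPKM + 1) scale, -2.06 ± 0.14 (SE, limma adjusted p = 0.000921). Its P14 mean was 17.4% of its P2 mean, beside 16.5% for Uhrf1 and 17.2% for Mcm5. Rrm1 had 12.1 and 13.5 FPKM at P2, 7.06 and 7.25 at P7, and 6.96 and 5.50 at P14, so it was low at both later stages with little between them. Its log2 difference was -0.94 ± 0.17 (SE, limma adjusted p = 0.0109), lost without P14 replicate 2 (adjusted p = 0.0622). Tk1, the cytosolic thymidine kinase of S phase, had 15.3 and 16.2 FPKM at P2, 7.64 and 6.08 at P7, and 5.76 and 6.10 at P14. Its P14 and P7 libraries overlapped, with P14 replicate 2 just above P7 replicate 2. Tyms, thymidylate synthase, was at 9.49 ± 0.797 FPKM at P2, 6.15 ± 0.0602 at P7 and 3.56 ± 0.0711 at P14 (SD, n = 2 each). The log2 differences at P14 against P2 were -1.28 for Tk1 and -1.20 for Tyms.

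By P7 each tested gene was already below its P2 level. Both P7 libraries were below both P2 libraries for 33 of 33 tested genes, where this held for 53.9% of all tested genes, and the P7 mean was 30.1% to 78.7% of the P2 mean over the 36 genes with a row (median 48.1%). The median log2 difference was -0.80, beside -0.27 for all tested genes. At the adjusted threshold 5 of 33 were called lower and 0 higher (1.18% of all tested genes were called lower): Rrm2 at -1.05 (limma adjusted p = 0.0350), Lig1 at -1.07 (0.0416), Tk1 at -1.10 (0.0448), Prim1 at -1.01 (0.0473) and Mcm6 at -1.18 (0.0490). At an unadjusted p below 0.05 the number was 31 of 33, beside 3729 of all 13566 tested genes in either direction. All 5 calls were close to the threshold. The count was 0 without P2 replicate 2, either P7 library or either P14 library, and 15 without P2 replicate 1, which had lower levels than P2 replicate 2 in 31 of 33 genes. It was also 0 under median-of-ratios scaling, with a replicate block and with a term for sex. The lower levels in P2 replicate 1 were not particular to these genes. The median log2 offset, replicate 2 minus replicate 1, was 0.20 in the 33 genes and 0.25 over all genes. With P2 replicate 1 left out, the median log2 difference was -0.96 in the list and -0.39 over all genes. The gap between those medians was -0.57, beside -0.52 with all 6 libraries.

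Between P14 and P7 the list spread out. Both P14 libraries were below both P7 libraries for 20 of 33 genes (15.3% of all tested genes) and above them for 3, which were Pola2, Rpa1 and Rpa2 (53.8% of all tested genes). The median log2 difference was -0.27 where that of all tested genes was 0.23. Called lower were 3 of 33 (1.60% of all tested genes) and 0 were called higher, where 1187 of all 13566 tested genes were called higher. An unadjusted p below 0.05 in either direction was found for 9 of 33, a smaller share than 4555 of all 13566 tested genes. The 3 called genes were Rrm2 at -1.01 ± 0.14 (SE, limma adjusted p = 0.0191), Lig1 at -0.77 ± 0.15 (0.0331) and Tyms at -0.65 ± 0.15 (0.0417). Each of these 3 calls was lost without either P7 library or either P14 library. Rrm2 and Lig1 were thus called in both intervals, and Tyms in the second alone, though whether Tyms fell more in the second interval was not shown, since its difference between intervals was -0.10 ± 0.25 (SE, limma adjusted p = 0.793).

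The test of unequal change asked whether a gene's log2 difference from P7 to P14 departed from that between P2 and P7. It called 0 of 33 genes (limma, adjusted p below 0.05, against 0.0663% of all tested genes). An unadjusted p below 0.05 was found for 6 of 33, a smaller share than 3439 of all 13566 tested genes. The contrast was positive for 32 of 33 genes, with a median of 0.59, and it was also positive for most tested genes, with a median of 0.51 over all. Under median-of-ratios scaling the 2 medians were 0.14 and 0.08. The largest values were 1.29 ± 0.45 for Rpa2 and 1.11 ± 0.41 for Gins1 (SE). By stage means, 26 of 33 genes were lower at each step, and 7 were lower at P7 than at P2 and then higher at P14 than at P7. Such a dip was not particular to these genes: the median over all tested genes was -0.27 at P7 against P2 and 0.23 at P14 against P7. It also depended on scaling. Under the protein-coding sum the difference at P14 against P7 was -0.06 for Gins1, -0.14 for Pola2, -0.13 for Rfc4 and -0.28 for Rfc5.

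**Figure D4:**
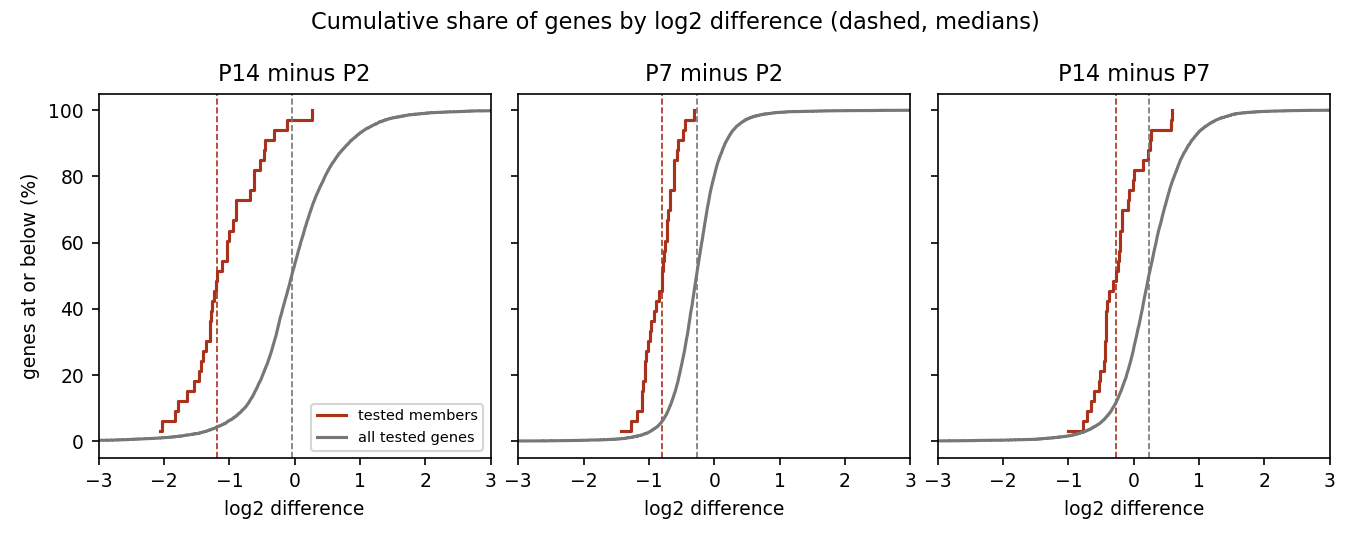
Cumulative share of genes (percent) at or below each log2 difference, for the 33 tested replication genes and for all 13566 tested genes, with dashed lines at the medians. The replication curve lies left of the curve of all genes in each comparison, and its median minus that of all genes is -1.15 at P14 against P2, -0.52 at P7 against P2 and -0.50 at P14 against P7.

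How a library is scaled moved the background more than the gap between the list and the background. Under median-of-ratios, quantile and protein-coding-sum scaling the median of the list minus that of all genes stayed between -1.04 and -1.13 for P14 against P2, -0.57 and -0.59 for P7 against P2, and -0.47 and -0.51 for P14 against P7. The balance of calls over all genes was less steady. At P14 against P2 it was 1744 lower and 1557 higher as deposited, 1806 and 2697 under median-of-ratios scaling, and 5012 and 1260 under scaling to the protein-coding sum. At P7 against P2 it was 160 and 15 as deposited, and 14 and 15 under median-of-ratios scaling. At P14 against P7 it was 217 and 1187 as deposited, and 1425 and 529 under the protein-coding sum. Counts called under the protein-coding sum, for any list below, are to be read beside these totals. The FPKM of the 36 genes summed to 245.0 and 293 at P2, 135 and 130.4 at P7, and 133 and 98.8 at P14 as deposited. As a share of the FPKM of protein-coding genes that is 0.141% and 0.14% at P2, 0.0806% and 0.0733% at P7, and 0.0493% and 0.0428% at P14. P14 replicate 1 was thus between the P7 libraries on the first scale, and both P14 libraries were below both P7 libraries on the second.

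In 8 pairs of genes with related roles in DNA replication or nucleotide supply, not all of them partners in a complex, the ratio of RNA levels within a library was lower at P14 than at P2. The pairs were chosen after their values were seen, for this difference, so they carry no test, and with 2 libraries against 2 an exact permutation test could not go below p = 0.333 in any case. The FPKM ratio of Rrm2 to Rrm2b, the alternative small subunit that serves cells outside S phase, was 3.62 and 3.12 at P2, 1.42 and 1.04 at P7, and 0.382 and 0.467 at P14. By RNA level, Rrm2b was therefore the lower of the 2 genes at P2 and the higher at P14. The ratio of Rrm2 to Rrm1 was 0.956 and 0.844 at P2, 0.714 and 0.692 at P7, and 0.266 and 0.391 at P14. The ratio of Lig1 to Rpa1 was 0.110 and 0.123 at P14, against 0.807 and 0.686 at P2. The ratio of Pole to Pole4 was 0.0911 and 0.116 at P14, against 0.533 and 0.590 at P2, and that of Prim1 to Pola2 was 0.576 and 0.528 at P14, against 1.58 and 1.79 at P2. A ratio within a library shows that the 2 genes changed unequally, not that either stayed level.

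**Figure D5:**
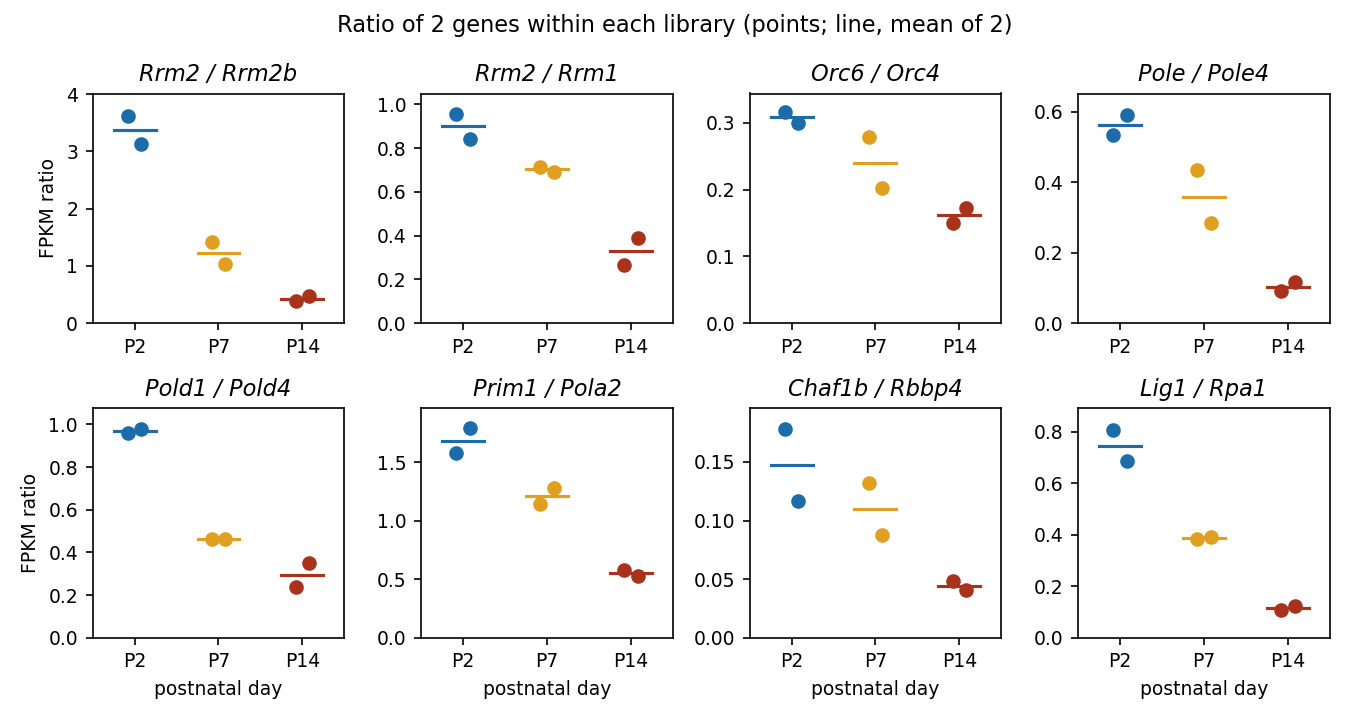
Ratio of the FPKM of 2 genes within each library for 8 pairs chosen after their values were seen, by postnatal day, with 1 point per library, a line at the mean of 2 and linear axes from 0. In each pair both P14 libraries are below both P2 libraries, with mean ratios at P14 of 12.6% (Rrm2 to Rrm2b) to 52.5% (Orc6 to Orc4) of those at P2.

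The other genes of the pathway, listed by function, numbered 66 tested. Of these, 23 were called lower and 2 higher at P14 than at P2, with a median log2 difference of -0.53. Over all tested genes 12.9% were called lower and 11.5% higher, with a median of -0.05. In origin firing 6 of 13 were lower, with Wdhd1, a fork scaffold, at -1.44 (limma adjusted p = 0.00347), Dbf4, the activator of the Cdc7 kinase, at -1.42 (0.00534) and Gmnn, the licensing inhibitor geminin, at -1.22 (0.00674). Topbp1, a checkpoint and initiation factor, was at -1.01, lost without P14 replicate 2. Among polymerase and fork genes 9 of 22 were lower, led by Pclaf, a Pcna-binding protein, at -1.75 (limma adjusted p = 0.00191), with Mms22l at -1.25, the nuclease-helicase Dna2 at -1.21 and the clamp unloader Atad5 at -1.07. In replication-coupled chromatin 5 of 9 were lower, including the helicase Hells at -1.60, the histone chaperone Asf1b at -1.59, the histone mRNA binding protein Slbp at -1.15 and Dnmt1 at -1.11, the last 2 lost without P14 replicate 2. Asf1a, the paralogue of Asf1b, was at -0.28 and did not pass. Among other nucleotide enzymes the deoxycytidine kinase Dck (-0.88) and the thymidylate kinase Dtymk (-0.86) were called lower, and 2 genes higher (Adsl of purine synthesis at 1.05 and the folate enzyme Mthfd1 at 0.70, the last named after its value was seen). Dut, which removes dUTP, was at -0.76 and did not pass. At P14 against P7, 217 of all 13566 tested genes were called lower and 1187 higher. In this list limma called Hells (-1.02), Pclaf (-0.91), Dbf4 (-0.85) and Atad5 (-0.82) lower and Mthfd1 (1.02) higher. At P7 against P2 it called 0 of 66, with 41 at an unadjusted p below 0.05, beside 3729 of all 13566 tested genes. Among fits with 1 library left out Adsl kept its call only without P2 replicate 2, and the calls of Dck and Dtymk were lost without either P14 library. Without P14 replicate 2 fewer genes of origin firing and of chromatin were called lower. Under the protein-coding sum the counts were 10 for origin firing, 9 for chromatin and 16 for polymerase and fork genes. That scaling called 5012 of all 13673 tested genes lower.

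A further list held enzymes that make, break down or limit deoxynucleotides outside S phase. Of its 6 genes tested, 0 were called in either direction at P14 against P2 by limma. An unadjusted p below 0.05 was found for 1 of 6, beside 5327 of all 13566 tested genes. Rrm2b was at 4.73 ± 0.180 FPKM at P14 and 3.42 ± 0.307 at P2 (SD, n = 2 each; log2 difference 0.38, limma adjusted p = 0.152), and the mitochondrial thymidine kinase Tk2 at 1.35 ± 0.155 FPKM at P14 and 1.76 ± 0.145 at P2. The log2 differences of Dguok (0.43), Samhd1 (-0.37) and Nt5c (-0.54) did not pass either. Among 10 genes that copy or maintain mitochondrial DNA, 3 were called higher, Tfb2m at 0.89, Ssbp1 at 0.72 and Tfam at 0.69. In the same list 1 was called lower, the primase-polymerase Primpol at -0.94 (lost without P14 replicate 1). Over all tested genes 11.5% were called higher and 12.9% lower. The mitochondrial polymerase Polg was at -0.02. The 3 higher calls were fragile: 0 of 10 were called higher without P2 replicate 1 or without P14 replicate 1, and 1 of 10 without P14 replicate 2 or either P7 library.

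The E2F and retinoblastoma genes that govern this program had 5 of 13 called lower and 0 higher at P14. Over all tested genes 12.9% were called lower and 11.5% higher. E2f8, an atypical E2F that is itself a cell cycle target, was at 0.552 ± 0.109 FPKM at P14 and 4.03 ± 0.0309 at P2 (SD, n = 2 each), a log2 difference of -1.70 (limma adjusted p = 0.00176). Rbl1 (p107) was at -1.35, E2f1 at -0.91, E2f7 at -0.87 and Rb1 at -0.66. Rbl2 (p130), which represses E2F targets in resting cells, was at 0.36 and E2f4 at -0.43, and neither passed. The calls of E2f1 and E2f7 were lost without either P14 library, and without either P2 library E2f1 missed the filter on low values and was not tested. Among fits with 1 library left out, the call of Rb1 held only without P2 replicate 2. Fewer of the 13 were called without either P14 library. Under the protein-coding sum 9 were called, with 5012 of all 13673 tested genes called lower and 1260 higher.

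Markers of other cell types changed over the same stages, and their part in the results was not tested. The counts below are for P14 against P2, where 12.9% of all tested genes were called lower and 11.5% higher. The 10 neutrophil and marrow markers were all called lower at P14 (median log2 difference -2.86): their FPKM summed to 312 and 174 at P2, 89.1 and 36.5 at P7, and 3.59 and 2.57 at P14, where Camp, Elane and Retnlg were listed at 0. Erythroid markers had 4 of 9 called lower, with sums of 1000 and 1945 at P2, 975 and 899.6 at P7, and 842 and 833 at P14. Cartilage and bone markers had 4 of 8 called lower and 1 higher, with sums of 111 and 50.5 at P2, 75.0 and 56.5 at P7, and 9.68 and 7.92 at P14, where Ibsp was listed at 0. Satellite cell and myoblast markers had 3 of 8 called lower, with sums of 64.2 and 83.3 at P2, 50.1 and 45.8 at P7, and 68.3 and 55.2 at P14. Muscle fibre markers had 7 of 9 called higher. Of the rest, 2 of 10 endothelial markers were higher, 1 of 9 macrophage and 1 of 10 Schwann cell markers were lower, and 0 of 10 fibro-adipogenic markers were called (0 also at an unadjusted p below 0.05).

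The authors' deposited table of comparisons rests on the same 6 libraries, so it is not a separate line of evidence. Its counts below use an unadjusted p over 36 genes, where those of limma use an adjusted p over 33. At an unadjusted p below 0.05 limma had 28 of 33 for P14 against P2. The share of all rows of the authors' table below that p was not counted. For P14 against P2, it listed 25 of the 36 genes as lower at an unadjusted p below 0.05 and 0 as higher, and 23 of those 25 were among the 25 called lower by limma. In the authors' deposited table the count was 18 lower for P7 against P2, of which 5 were also called by limma, and 16 for P14 against P7, of which 3 were. The ratios of the authors' deposited table set values below 1 FPKM to 1. They rest on stage values that differ from the means of the 2 libraries used here, for a reason that was not tested. For Pcna at P14 against P7 that table gave a signed fold change of -1.25, where the P14 mean here was 95.3% of the P7 mean. For Uhrf1, Mcm5 and Rrm2, the authors' deposited table gave signed fold changes of -5.50, -5.41 and -5.36 at P14 against P2.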

How the data were processed

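RNA of 6 hindlimb muscle libraries, 2 each at P2, P7 and P14, was sequenced after Trizol extraction and stranded, ribosome-depleted library preparation from 200 ng of total RNA, per the labels' protocols. The submitters' processing notes name the build GRCm38 and, as tools, Cuffdiff 2.2.1, Cufflinks 2.2.1, TopHat2 2.0.8, FastQC 0.10.1 and CASAVA 1.2-14; their settings, annotation and strand use are not given in the sources used here. The authors deposited FPKM per gene and library, and, per the file headers, comparison tables with a fold change and a p-value. Read from the values, that fold is the ratio of stage FPKM with values below 1 raised to 1 (all 39170 rows matched within 0.1%).

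Here log2(FPKM + 1) was fitted with a mean per stage in limma 3.58.1 (R 4.3.3) with a variance trend, for genes at 1 FPKM or more in 2 or more libraries; tests were two-sided, with Benjamini-Hochberg adjustment across 13566 genes. Residual degrees of freedom were 3 and prior ones 3.80, and log2 differences had a median SE of 0.19. The pseudocount understates the change of low genes. The files hold no counts, so no counting interval is given; relative depth, read from the smallest FPKM steps at 4 transcript lengths, was 72.8% to 100.0% of P2 replicate 1. Genes at 1 FPKM or more numbered 12175 to 13337 per library, and 0 pairs of libraries were identical.

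The 38 genes, the other lists and the tests were chosen with earlier results of these data known. Named genes were all 38, up to 4 of each other list by largest difference, and a fixed set of partners; exceptions are marked. Same-numbered replicates did not deviate together (correlations of -0.159 to 0.030 over genes), so replicates were not paired. The replicate numbers, also used for the replicate block, are those of the sample titles. The sample descriptions number some libraries otherwise, and pairing by those numbers was not checked. The steps were tested on simulated data. A gene of the fixed set is not reported here.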

Additional observations from a re-analysis of the deposited data

How the results depend on the processing

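The count of 25 replication genes lower at P14 than at P2 was 16 with an FPKM minimum of 5, which tests fewer genes. It was 19 with no filter (lost: Orc6, Cdc6, Mcm2, Pola1, Pcna and Chaf1a). With a replicate block it was 24, with a sex term 23 and with protein-coding-sum scaling 31. Of the 25, 17 kept their call whichever library was left out. The median difference of -1.19 was -1.40 with a pseudocount of 0.1, -0.59 with 5, -1.04 with quantile normalization, -1.46 with the protein-coding sum, and -1.28 to -1.02 with 1 library left out. Calls over all genes moved too. With the protein-coding sum 5012 of 13673 genes were called lower, against 1744 of 13566 in the main fit. The number was 886 of 7245 with a minimum of 5, 915 of 29496 with no filter, 1291 with a replicate block and 1153 with a sex term.

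The 5 calls of P7 against P2 depended on most settings. The count was 0 with a pseudocount of 0.1, no filter, median-of-ratios scaling, a replicate block, a sex term or only the 4 libraries compared, 2 with a mean of at least 1 FPKM, 3 with a minimum of 5, quantile normalization or no variance trend, 8 with the protein-coding sum, 9 with a pseudocount of 5, 10 with robust moderation, 20 with protein-coding genes only, and 0 to 15 with 1 library left out. The median of -0.80 was -1.09 and -0.41 with pseudocounts of 0.1 and 5, -0.94 with a minimum of 5, -0.59 with median-of-ratios scaling, -0.57 with quantile normalization, and -0.96 to -0.70 with 1 library left out. Over all genes 160 of 13566 were called lower in the main fit. The number was 657 of 12048 with protein-coding genes only, 287 of 13566 with robust moderation and 14 of 13504 with median-of-ratios scaling.

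The 3 calls of P14 against P7 became 0 without a filter, and 1 with a replicate block, a sex term or a log2 difference of at least 1. They became 6 with quantile normalization or only the 4 libraries compared, 8 with median-of-ratios scaling and 18 with the protein-coding sum. Each of the 3 was lost without either P7 library or either P14 library. The median of -0.27 was -0.46 and -0.12 with pseudocounts of 0.1 and 5, -0.43 with median-of-ratios scaling, -0.51 with quantile normalization, -0.64 with the protein-coding sum, and -0.39 to -0.15 with 1 library left out. Over all genes 217 of 13566 were called lower in the main fit. The number was 612 of 13504 with median-of-ratios scaling and 1425 of 13673 with the protein-coding sum. Unequal change was called for 0 genes of the list in every setting run on all 6 libraries. Without P2 replicate 1 the median of that contrast was 0.74 in the list and 0.65 over all genes. No called value changed sign; 16 sign changes fell on 8 uncalled values of the list, and 9 on 4 of the other named genes. Except for fits on fewer genes or samples, the cause of these shifts was not tested. Depth is known only in relative terms, and Orc1, Gins3 and Fen1 were too low to be tested.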
